A study of Homo sapiens with 4 samples.

Results

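Glycolytic enzymes were followed across 4 arrays, 10 genes in all: GPI, PFKL, PFKP, ALDOA, ALDOC, TPI1, PGK1, ENO1, PKM (formerly PKM2) and LDHA. They were chosen by name, as enzymes of the chain from glucose to lactate. A gene was found by the transcript accession in the authors' deposited ratio table and tied to a probe where its ratio matched that of a single probe. GPI, PFKL, PFKP, ALDOA, ALDOC, ENO1, PKM and LDHA were tied to 11 probes in all, and 10 of these probes, covering all 8 genes, were detected. These are 8 of the 15333 named genes tied to a probe. TPI1 and PGK1, together with 1 further accession each of ALDOA and LDHA, matched no single probe, so they have the authors' ratio but no signal here.

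The RNA came from MDA-LM2, a human breast cancer line derived from MDA-MB-231 for its spread to the lung. All cells received synthetic RNA with a cap and a poly(A) tail by the same lipid transfection, in a medium that contained serum, glutamine and pyruvate, and total RNA was taken after 48 h. The scrambled RNA group (2 arrays) received a scrambled sequence, and the sRSE decoy group (2 arrays) a decoy of the RNA element called sRSE, so the comparison asks which transcripts differ when the decoy is present. No arrays of untransfected cells were analysed here. Each RNA sample was read on 1 Illumina expression beadchip with 47323 probes, as the mean bead signal per probe. Since no label ties the replicates to cultures of their own, p-values measure only how far these arrays spread, which may be technical.

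Glycolysis splits glucose in the cytosol into pyruvate, and lactate dehydrogenase then turns pyruvate into lactate so that the chain can keep running. Phosphofructokinase and pyruvate kinase catalyse its main irreversible steps after hexokinase. Many cancer cells run the chain at a high rate even with oxygen present, and several of its enzymes are known targets of the hypoxia-inducible factor HIF-1 and of MYC.

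The arrays gave 13402 to 13849 probes above background, and 13889 probes were detected (a detection p below 0.01 on 2 or more arrays). Raw signals were higher overall with the decoy: the median detected probe read 1.17 times its scrambled RNA signal, 1.22 times in the dimmest 20% of detected probes and 1.04 times in the brightest 20%. Signals were therefore corrected for background and quantile normalised before the groups were compared, and log2 values below are on that scale. Of the cell line's markers with a probe, CD44, MSN and ANXA1 were detected on all 4 arrays, and the luminal and epithelial genes ESR1, PGR, GATA3, CDH1, FOXA1 and ERBB3 on 0. Of the markers of other cell types, the leukocyte gene PTPRC and the fibroblast collagen COL1A1 were not detected, while the endothelial gene PECAM1 was detected on all 4 arrays, with raw signals of 166 and 129 with scrambled RNA and of 272 and 264 with the decoy, a rise of 0.78 ± 0.14 (log2, SE; limma adjusted p = 0.0042). Its part in the results below was not tested. In bulk RNA, a different mix of cells and a different amount of transcript per cell cannot be told apart.

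The promoters shown here are those of GPI and PKM, which had the probes with the largest differences, of the aldolase pair called in opposite directions (ALDOA, ALDOC), and of LDHA, which did not pass. For ALDOA and LDHA, which have several starts, the window shown is the one that holds CACGTG. Each is written 5′ to 3′ from 250 bases before to 50 bases after a transcription start (RefSeq, GRCh38.p14). Capitals mark ACGTG and GCGTG, the core of the hypoxia response element, on either strand. The E-box CACGTG, which MYC and related factors can bind, holds an ACGTG on each strand and counts among them as both.
GPI, chr19:34364742-34365041, plus strand: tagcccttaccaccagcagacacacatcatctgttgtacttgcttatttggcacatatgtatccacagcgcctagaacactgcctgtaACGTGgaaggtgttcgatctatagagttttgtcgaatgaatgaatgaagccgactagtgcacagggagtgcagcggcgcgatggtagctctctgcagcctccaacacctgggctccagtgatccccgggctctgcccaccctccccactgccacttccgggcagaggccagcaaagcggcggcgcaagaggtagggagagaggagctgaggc
ALDOA, chr16:30064247-30064546, plus strand: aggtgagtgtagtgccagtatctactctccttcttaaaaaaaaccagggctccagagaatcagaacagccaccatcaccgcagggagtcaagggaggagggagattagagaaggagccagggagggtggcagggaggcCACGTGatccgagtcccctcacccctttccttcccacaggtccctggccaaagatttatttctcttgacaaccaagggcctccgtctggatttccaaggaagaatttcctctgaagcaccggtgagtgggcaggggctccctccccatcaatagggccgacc
ALDOC, chr17:28576846-28577145, minus strand: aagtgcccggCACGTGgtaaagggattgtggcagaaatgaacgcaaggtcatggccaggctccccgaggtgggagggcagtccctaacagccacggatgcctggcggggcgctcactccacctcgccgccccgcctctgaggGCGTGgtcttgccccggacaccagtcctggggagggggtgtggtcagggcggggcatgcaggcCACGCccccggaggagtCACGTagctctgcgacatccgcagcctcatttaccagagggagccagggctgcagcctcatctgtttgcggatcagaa
PKM, chr15:72231141-72231440, minus strand: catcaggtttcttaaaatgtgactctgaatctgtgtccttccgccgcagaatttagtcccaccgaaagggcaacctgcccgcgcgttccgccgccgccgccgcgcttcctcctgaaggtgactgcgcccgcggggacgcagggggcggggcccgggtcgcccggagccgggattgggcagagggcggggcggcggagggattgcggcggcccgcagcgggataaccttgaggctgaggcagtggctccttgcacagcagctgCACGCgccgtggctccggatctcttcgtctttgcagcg
LDHA, chr11:18394313-18394612, plus strand: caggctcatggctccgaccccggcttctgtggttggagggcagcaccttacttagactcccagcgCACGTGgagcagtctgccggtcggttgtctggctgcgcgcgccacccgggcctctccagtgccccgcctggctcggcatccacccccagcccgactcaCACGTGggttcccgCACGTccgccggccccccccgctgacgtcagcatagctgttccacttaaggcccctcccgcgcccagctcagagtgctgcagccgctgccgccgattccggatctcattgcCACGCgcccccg
At least 1 of the capitalised cores stood in a window of all 10 enzymes, and in 14 of their 17 windows, since PFKP, ALDOA, TPI1 and LDHA have several starts. Among all 35116 windows of this length, 48.4% held one. The share per gene was not counted over all genes, and a gene with several windows has more chances of a match. CACGTG stood in 3 of the 17 windows, 1 each of ALDOA, ALDOC and LDHA, and in 7.26% of all windows. The other starts of ALDOA and LDHA lacked it. LDHA's window held it at a pair of places and had the most ACGTG matches of the 17 windows (5). These are matches of letters only, and which start these cells used was not measured.

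Of the 8 measured enzymes, 5 rose with the decoy, ALDOC was called lower, and PFKP and LDHA did not pass (limma, adjusted p under 0.05 over all detected probes). The rises were those of GPI, PFKL, ALDOA, ENO1 and PKM, of 0.37 to 1.01 on the log2 scale. Of all 13889 detected probes, 21.5% were called higher and 21.9% lower, 43.4% in all. The share of these calls that were higher, 49.4%, moved with the scaling, to 62.3% with median scaling, 64.2% with the 75th percentile, 77.2% with raw signals over each array's median and 36.7% with median scaling before the offset (the constant added to each corrected signal before taking logs). Among the brightest 20% of probes 17.3% were called higher. The median log2 difference of the 8 enzymes was 0.44, ranging from 0.41 to 0.53 when single decoy arrays were set against single scrambled arrays, and that of all detected probes was -0.020. With median scaling before the offset the enzymes' median was 0.19, and that of all detected probes was -0.097. Of the 8, 4 (GPI, PFKL, ALDOA and PKM) were called higher by at least 0.5, as were 10.5% of all detected probes. These genes were chosen with results of these arrays known, so the counts are a description.

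**Figure D1:**
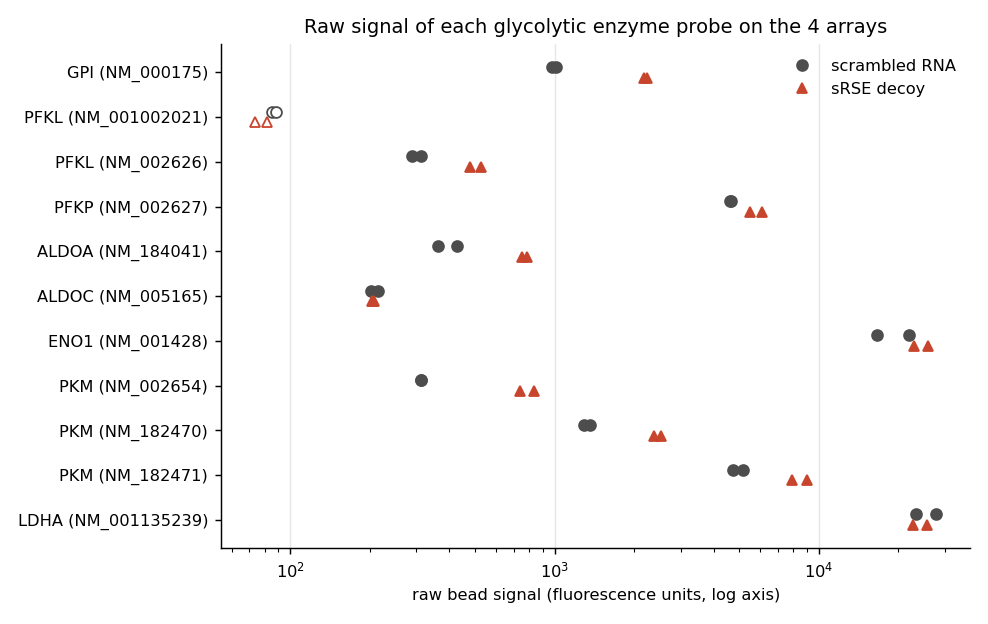
Raw bead signal of each linked probe (log axis, fluorescence units), with 1 circle per scrambled RNA array and 1 triangle per sRSE decoy array; open symbols mark the PFKL probe that was not detected. Decoy triangles stand to the right of both circles for GPI, PFKL (NM_002626), PFKP, ALDOA, ENO1 and the 3 PKM probes, and overlap them for ALDOC and LDHA. Brightness of different probes does not rank the genes.

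GPI, glucose-6-phosphate isomerase, turns glucose 6-phosphate into fructose 6-phosphate at the entry of the chain. Its raw signal was 975 and 1014 with scrambled RNA and 2227 and 2177 with the decoy. Both decoy arrays lay far above both scrambled arrays. On the normalised scale it rose by 1.01 ± 0.10 (log2, SE of the fit to 2 arrays a group; limma adjusted p = 6.75e-04), 2.01-fold. Only 1.26% of detected probes had a difference at least as high.

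Phosphofructokinase commits the sugar to glycolysis, and its liver-type and platelet-type subunits, PFKL and PFKP, were both measured. PFKL gave raw signals of 312 and 288.5 with scrambled RNA and of 527 and 480 with the decoy. The groups did not overlap, and PFKL rose by 0.51 ± 0.09 (log2, SE; limma adjusted p = 0.00308), 1.42-fold. A second PFKL probe, of another transcript accession, read 73.4 to 88.5 with detection p of 0.053 to 0.258, was detected on 0 arrays and was not tested. PFKP read 4594 and 4642 with scrambled RNA and 6091 and 5504 with the decoy. Both decoy arrays were higher, but the difference of 0.24 ± 0.09 (log2, SE) did not pass (limma adjusted p = 0.0718). It passed with cyclic loess (0.28, limma adjusted p = 0.0424), without background correction (0.24, limma adjusted p = 0.0363) and in the authors' normalized intensities (0.23, limma adjusted p = 0.0455). With median scaling before the offset it was -0.041, where all probes had a median of -0.097 and PFKP stood 0.056 above it. The third subunit gene, the muscle-type PFKM, read -0.12 ± 0.13 (log2, SE; limma adjusted p = 0.475), with overlapping normalised groups. Within arrays, the change of PFKL exceeded that of PFKP by 0.27 on the log2 scale, and by 0.20 to 0.54 under the 7 other scalings and background corrections.

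Aldolase splits the phosphorylated sugar, and its genes ALDOA, the widely expressed form, and ALDOC, a form abundant in brain, were called in opposite directions. ALDOA had raw signals of 428.5 and 363.5 with scrambled RNA and of 750 and 783 with the decoy. Both decoy arrays stood clear of the scrambled arrays, and ALDOA rose by 0.76 ± 0.11 (log2, SE; limma adjusted p = 0.00163), 1.69-fold. ALDOC, in contrast, read 215.0 and 202 with scrambled RNA and 208 and 204 with the decoy. These raw values overlap, with a ratio of decoy to scrambled RNA of 0.988. After quantile normalisation, where most probes of that brightness had gained raw signal, ALDOC was 7.49 and 7.50 with scrambled RNA and 6.99 and 7.11 with the decoy on the log2 scale, lower by 1.36-fold, at -0.44 ± 0.09 (SE; limma adjusted p = 0.00679). The call of ALDOC rested on the scaling. It was -0.26 with median scaling (limma adjusted p = 0.106), -0.23 with scaling on the 75th percentile of probes detected on all arrays (limma adjusted p = 0.073), and -0.12 with raw signals over each array's median (limma adjusted p = 0.421), where all probes had a median of 0.12 and ALDOC stood 0.24 below it (-0.24). Without sRSE decoy replicate 1 it was -0.38 and did not pass (limma adjusted p = 0.0516). The gap between the changes of ALDOA and ALDOC was 1.20 on the log2 scale, and it lay between 0.97 and 1.20 under the 7 other scalings and background corrections. An exact two-sided permutation test of this gap and of that between PFKL and PFKP, the 2 pairs compared, gave p = 0.333 for each, the smallest that 2 arrays against 2 allow.

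ENO1, the enolase of most tissues, makes phosphoenolpyruvate. It read 21986 and 16590 with scrambled RNA and 25795 and 22878 with the decoy, so the scrambled arrays differed more from each other than the nearer pair of arrays across groups. It rose by 0.37 ± 0.12 (log2, SE; limma adjusted p = 0.0376). ENO1 no longer passed without sRSE decoy replicate 1 (0.33, limma adjusted p = 0.155), scrambled RNA replicate 2 (0.21, limma adjusted p = 0.18) or sRSE decoy replicate 2 (0.40, limma adjusted p = 0.104), nor with median scaling (0.14, limma adjusted p = 0.43), the 75th percentile (0.17, limma adjusted p = 0.229), raw signals over each array's median (0.24, limma adjusted p = 0.0765) or no detection filter (limma adjusted p = 0.163), and it was -0.023 with median scaling before the offset. All probes had a median of -0.097 with median scaling before the offset, and ENO1 stood 0.074 above it. ENO2, the isozyme first known from neurons, rose by a similar 0.36 ± 0.09 (log2, SE; limma adjusted p = 0.0163), from raw signals of 926 and 819 to 1299 and 1272.

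PKM, pyruvate kinase, carries out the last step to pyruvate and was read by 3 probes, all higher with the decoy. The brightest, of accession NM_182471, gave raw signals of 5165 and 4751 with scrambled RNA and of 9042 and 7900 with the decoy, and rose by 0.70 ± 0.09 (log2, SE; limma adjusted p = 0.00105). That of NM_182470 gave 1362 and 1287 against 2529 and 2383, and rose by 0.77 ± 0.09 (log2, SE; limma adjusted p = 8.55e-04). The dimmest, of NM_002654, went from 313 and 312 to 834 and 736.5 and rose by 1.17 ± 0.09 (log2, SE; limma adjusted p = 3.59e-04), 2.25-fold. No array of either group overlapped the other at any of the 3 probes. The accessions stand for splice forms, but the probes' sequences were not used here, so it is not known which forms each probe reads.

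LDHA, the lactate dehydrogenase subunit typical of muscle and tumours, did not pass. Its raw signal was 27835 and 23403 with scrambled RNA and 25647 and 22625 with the decoy, and the groups overlapped. The difference was -0.044 ± 0.093 (log2, SE; limma adjusted p = 0.729). LDHB, the other main subunit, read 0.0095 ± 0.094 (log2, SE; limma adjusted p = 0.944), also with overlapping groups. LDHA ranked 38 and ENO1 64 in brightness among the 13889 detected probes, near the top of the scale, where the highest raw signal on any array was 38361. Whether the beads' upper limit narrowed their differences was not tested. LDHA was called lower with 2 scalings, at -0.26 with the 75th percentile (limma adjusted p = 0.0434) and at -0.45 with median scaling before the offset (limma adjusted p = 0.00623). The cause was not tested.

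**Figure D2:**
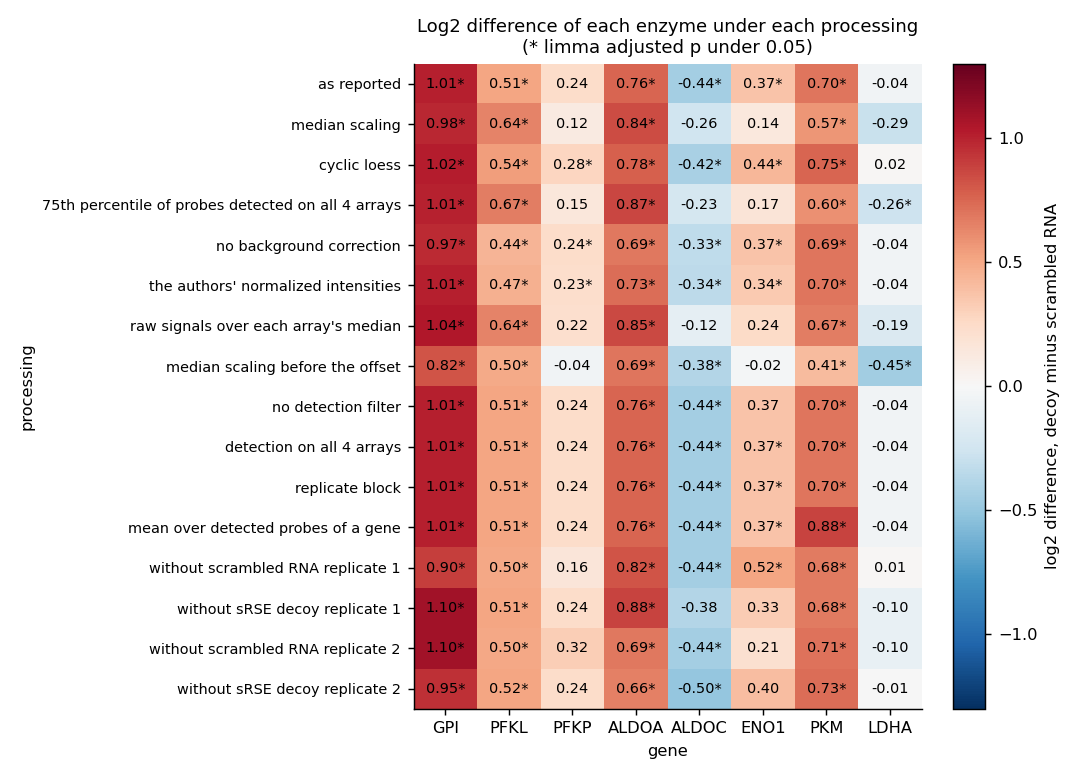
Log2 difference (decoy minus scrambled RNA) of the 8 measured enzymes, in columns, under each processing, in rows; red is higher, blue is lower, and a star marks a limma adjusted p under 0.05. GPI (0.82 to 1.10), PFKL, ALDOA and PKM keep their star in every row, while ENO1, ALDOC, PFKP and LDHA gain or lose it.

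Over the 10 detected probes of these genes, the raw groups did not overlap at 8, against 70.0% of all detected probes. All 8 were higher on both decoy arrays, as were 58.6% of all detected probes. The normalised groups did not overlap at 9 of the 10, against 74.2% of all detected probes, so separation of the groups alone sets few probes apart on these arrays. GPI, PFKL, ALDOA and PKM passed, in the same direction, under each of the 15 alternatives tried. The share of all detected probes that did so was not counted. The other detection filters and the replicate block left the differences themselves unchanged.

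The authors' deposited table adds the genes that were not tied to a probe. It gives log10 ratios of log-like values, which are far smaller than log2 fold changes, so they are read by their percentile among all 39747 accessions. Most probes on the arrays were not detected, and high percentiles also occur at such probes: SLC16A7, detected on 0 arrays, stood at 95.1. Whether the genes not tied to a probe were detected is not known, so a high percentile alone does not show a rise. In the authors' deposited table TPI1, triose phosphate isomerase, stood at 0.0134 (percentile 95.6), and PGK1, phosphoglycerate kinase and the first ATP-yielding step, at -0.00267 (percentile 30.7). The authors' deposited table put the second accession of ALDOA at 0.0172 (percentile 97.2), on the same side as its measured probe, and that of LDHA at -0.00354 (percentile 25.1). The authors' deposited table also lists GAPDH, which links sugar oxidation to phosphate uptake, at 0.0228 (percentile 98.6), and PGAM1, phosphoglycerate mutase, at 0.0390 (percentile 99.8). HK2, the hexokinase of many tumours, is at -0.00555 in the authors' deposited table (percentile 15.7). Pseudogenes can share sequence with these genes. RefSeq names 65 of them for GAPDH, 6 for LDHA, 5 for PKM, 4 each for ENO1 and TPI1, 2 each for ALDOA and PGK1, and 0 for GPI, PFKL, PFKP and ALDOC, and reads from such copies cannot be told apart here.

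**Figure D3:**
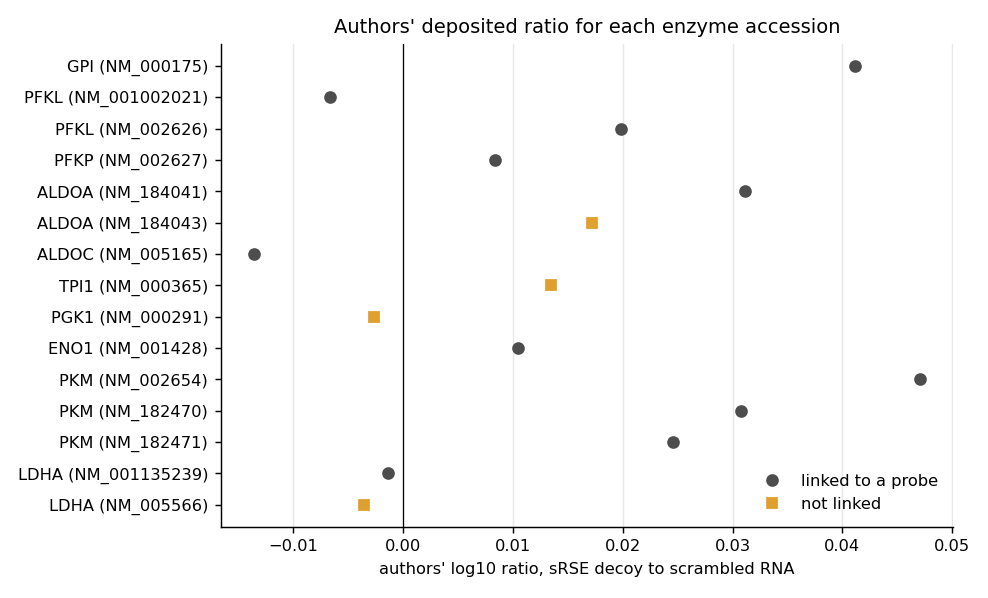
The authors' deposited log10 ratio (decoy to scrambled RNA) for each accession of the 10 enzymes, as circles where it was tied to a probe and squares where it was not. PKM (0.0470), GPI (0.0411) and ALDOA (0.0311) lie farthest to the right, and ALDOC (-0.0136) farthest to the left.

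Genes around the chain were read in the same way. Of 74 genes in 6 lists (other glycolytic enzymes, transport, regulators, pyruvate entry, the pentose phosphate pathway and glycogen metabolism), 37 were measured, of which 7 rose, 7 fell and 23 did not pass (limma), with a median log2 difference of -0.061. Over all detected probes 21.5% were called higher and 21.9% lower, and the counts per list below are small numbers to be read against those shares. No such share was counted at an unadjusted p under 0.05, so the unadjusted counts below have none to be read against. Of 4 other glycolytic enzymes measured, ENO2 rose and 3 did not pass, among them the ADP-dependent glucokinase ADPGK at 0.15 ± 0.09. The glucose transporters SLC2A1 (-0.028 ± 0.088) and SLC2A3 (-0.076 ± 0.097) did not pass, with overlapping groups (limma adjusted p = 0.819 and 0.552).

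Of the 6 transport genes measured, 1 rose and 3 fell, against 21.5% and 21.9% of all detected probes. BSG, basigin, the chaperone that brings monocarboxylate transporters to the membrane, had raw signals of 1068 and 968 with scrambled RNA and of 2476 and 2521 with the decoy. It rose by 1.17 ± 0.10 (log2, SE; limma adjusted p = 3.97e-04). SLC16A3, the lactate exporter MCT4 that BSG escorts, read 9865 and 9181 against 8560 and 8046 and fell by 0.25 ± 0.09 on the log2 scale (SE; limma adjusted p = 0.0459). The other falls were SLC2A6 (-0.58 ± 0.09) and SLC2A8 (-0.27 ± 0.09). SLC2A8 had overlapping raw groups with a raw ratio of 1.06, and was -0.11 with median scaling and -0.010 with raw signals over each array's median, losing its call in 11 of the 15 alternatives, as SLC16A3 did in 7. SLC16A3 and SLC2A8 did not pass with any single array left out (limma adjusted p = 0.0953 to 0.174 and 0.0562 to 0.153).

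Of the 7 regulators measured, 0 were called higher and the probes of 2 lower (limma), against 21.5% and 21.9% of all detected probes. At an unadjusted p under 0.05, 0 were higher and 4 lower, for which no share of all detected probes was counted. PFKFB4, which makes the activator of phosphofructokinase, fell by 0.40 ± 0.09 (log2, SE; limma adjusted p = 0.00769), from raw signals of 1060 and 968 to 960 and 863. The linked probe of HIF1A, the oxygen-sensing subunit of HIF-1, fell by 0.41 ± 0.09 (log2, SE; limma adjusted p = 0.00852), from 3341 and 3064 to 2856 and 2372, and did not pass without sRSE decoy replicate 2 (-0.36, limma adjusted p = 0.0649). The authors' deposited table disagrees between the accessions of HIF1A, at -0.0155 for that of this probe and 0.0245 (percentile 98.9) for another, so the count of falls refers to the linked probe and no direction is given for the gene. The pyruvate dehydrogenase kinases PDK2, PDK3 and PDK4 did not pass.

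At the mitochondrial end, where pyruvate is imported and oxidised, 0 of 8 measured genes rose and 1 fell (limma adjusted p under 0.05). Over all detected probes 21.5% rose and 21.9% fell at that threshold. At an unadjusted p under 0.05, 0 of the 8 were higher and 2 lower, for which no share of all detected probes was counted. The 1 that fell at the adjusted threshold was MPC2, a subunit of the pyruvate carrier, at -0.32 ± 0.09 (log2, SE; limma adjusted p = 0.0276). Its raw groups overlapped (1276 and 1088 against 1209 and 1002.5). MPC2 lost its call in 6 of the 15 alternatives. It did so without scrambled RNA replicate 1 (-0.27), sRSE decoy replicate 1 (-0.39) or sRSE decoy replicate 2 (-0.26). The others were median scaling (-0.31, limma adjusted p = 0.0625), raw signals over each array's median (-0.20, limma adjusted p = 0.152) and no detection filter (limma adjusted p = 0.107). The dehydrogenase genes PDHA1, PDHB, PDHX, DLAT and DLD read -0.21 to -0.067, and none of them passed. Before normalisation their raw ratios of decoy to scrambled RNA were, in that order, 1.03, 0.93, 1.04, 1.12 and 0.999. The authors' deposited table puts MPC1, the carrier's other subunit, which was not tied to a probe, at 0.00813 (percentile 91.0). The authors' deposited table also puts an unlinked accession of PCK2 at 0.00727 (percentile 89.5), against -0.00733 for the linked one.

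In the pentose phosphate pathway, which branches off at glucose 6-phosphate to make NADPH and ribose, 2 of 5 measured genes rose and 1 fell, against 21.5% and 21.9% of all detected probes. PGD, which yields NADPH, read 998 and 822 with scrambled RNA and 2063 and 1876 with the decoy, and rose by 0.96 ± 0.09 (log2, SE; limma adjusted p = 5.98e-04). PGLS, the lactonase before it, rose by 0.49 ± 0.09 (log2, SE; limma adjusted p = 0.00377). RPIA, the ribose isomerase, fell by 0.62 ± 0.13 (log2, SE; limma adjusted p = 0.00705), while transketolase TKT (0.25 ± 0.09) and transaldolase TALDO1 (0.16 ± 0.09), which return carbon to glycolysis, did not pass (limma adjusted p = 0.0569 and 0.165).

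Of 7 measured genes of glycogen metabolism and gluconeogenesis, 3 rose, 0 fell and 4 did not pass (limma adjusted p under 0.05). At that threshold 21.5% of all detected probes were higher and 21.9% lower. At an unadjusted p under 0.05, 0 of these genes were lower, for which no share of all detected probes was counted. The 4 that did not pass were GBE1, FBP1, PGM1 and PGM2. PYGB and PYGL, glycogen phosphorylases, rose by 0.51 ± 0.10 and 0.30 ± 0.09 (log2, SE; limma adjusted p = 0.00496 and 0.0284), and G6PC3, a glucose-6-phosphatase, by 0.86 ± 0.11 (log2, SE; limma adjusted p = 0.00108), from 260 and 209 to 502.5 and 452. PYGL was 0.035 with median scaling before the offset (limma adjusted p = 0.821), 0.20 with median scaling (limma adjusted p = 0.237) and 0.22 with the 75th percentile (limma adjusted p = 0.0786), and did not pass without a detection filter (limma adjusted p = 0.104). PYGL did not pass with any single array left out (0.25 to 0.37). ENO2 lost its call in 4 of the 15 alternatives. It did so without scrambled RNA replicate 2 (0.34) or sRSE decoy replicate 2 (0.30). The others were median scaling before the offset (0.22, limma adjusted p = 0.116) and no detection filter (limma adjusted p = 0.0742). Of the 14 called genes in these lists, BSG, PGLS, PGD and G6PC3 passed under each of the 15 alternatives, and none changed direction under any of them. The matching share of all detected probes was not counted. SLC2A6 (-0.23, limma adjusted p = 0.0899) and PFKFB4 (-0.26, limma adjusted p = 0.0608) lost the call with raw signals over each array's median, PYGB with median scaling before the offset (0.27, limma adjusted p = 0.0606) and RPIA without a detection filter (limma adjusted p = 0.0598).

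**Figure D4:**
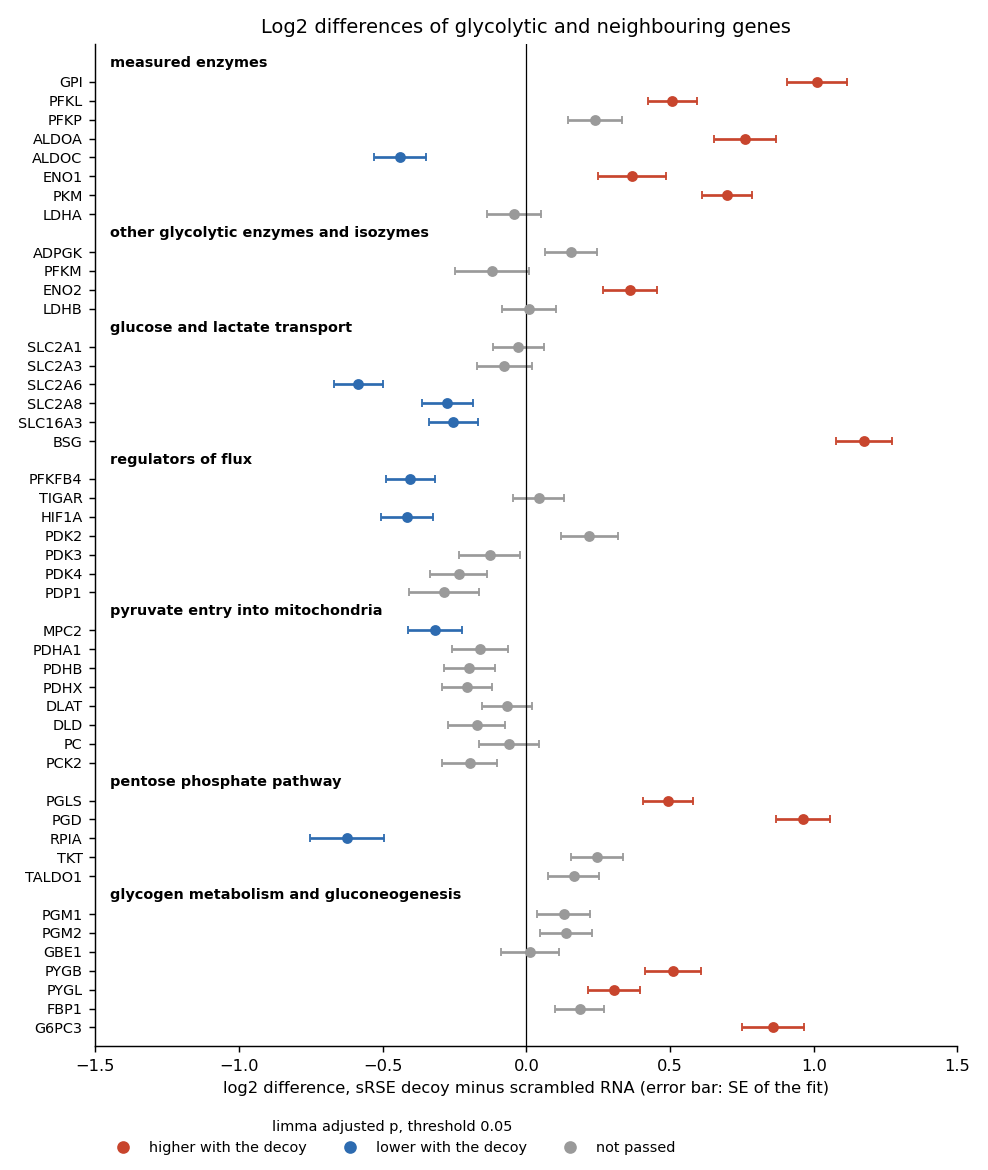
Log2 difference (decoy minus scrambled RNA, error bar SE of the fit, 2 arrays a group) of the 8 measured enzymes and of 37 genes around them, grouped by list; red was called higher and blue lower (limma adjusted p under 0.05), and grey did not pass. GPI, BSG and PGD lie near 1, and the 8 genes of pyruvate entry all lie below 0. Of these 8, 7 did not pass, and the median of all detected probes was -0.020.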

How the data were processed

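Raw bead intensities of 47323 probes and a detection p-value for each were deposited for all 4 arrays, per the file headers. For sRSE decoy replicate 1, 3 detection cells held no p-value and were filled in from neighbours in signal. A deposited matrix holds normalized intensities (the submitters' processing notes name lumi). A further table of 39747 ratios, a log fold change per the file headers, was matched by log10 of the ratio of group means after an inverse hyperbolic sine transform, a form found from the values. The link of accessions to probes rests on that match (within 6e-10, no other candidate): 32437 accessions (81.6%) were linked, 16718 with a current symbol in RefSeq GCF_000001405.40, and tables shifted on purpose gave 103 links on average. In simulated data, 4 links of 33105 were wrong. Those data were built with the same form and fitted constants, so they do not test whether that form is right.

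Background was removed by normexp, its negative controls estimated from detection p-values, with an offset of 16, and signals were quantile normalised and put on the log2 scale (neqc steps of limma 3.58.1, R 4.3.3). All 13889 detected probes entered 1 limma fit (lmFit, eBayes, no covariates), with p-values adjusted by Benjamini-Hochberg across them and a threshold of 0.05. A gene was read by its brightest detected probe. The fit was tested on simulated data in which far fewer probes changed than were called here. That test therefore does not show how the fit performs on these arrays. The number of arrays limits the precision. Named are all member genes, all called genes of the lists, and GAPDH and the members' isozymes; HK2, PGAM1, ADPGK and other listed genes that did not pass were chosen for mention after their values were seen. Members and lists were chosen with earlier results of these data known.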

Additional observations from a re-analysis of the deposited data

How the results depend on the processing

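The alternatives were 3 other scalings, no background correction, the authors' normalized intensities, 2 other detection filters, the mean over a gene's probes, a replicate block, each array left out, and 2 scalings chosen after seeing the data (raw signals over each array's median, and median scaling before the offset). An array left out leaves 1 array in its group, assumed to vary like the others. The 6029 probes called became 3498 without a detection filter (1909 higher, 1589 lower) and 3704 to 5055 with 1 array left out (1885 to 2570 higher, 1819 to 2485 lower, fewest without sRSE decoy replicate 2 and next without sRSE decoy replicate 1). The split of 2981 higher and 3048 lower became 4707 and 1393 with raw signals over the median, which moved the median of all probes by 0.15, 3443 and 2082 with median scaling, 4089 and 2277 with the 75th percentile, and 2481 and 4272 with median scaling before the offset. Members called higher were 4 to 6 throughout; the 1 called lower became 0 with median scaling, raw signals over the median and without sRSE decoy replicate 1 (0 to 1 with 1 array left out), and 2 with median scaling before the offset. With the 75th percentile the 1 called lower was LDHA (-0.26, limma adjusted p = 0.0434), while ALDOC lost its call (-0.23, limma adjusted p = 0.073). With median scaling before the offset the 2 called lower were ALDOC (-0.38, limma adjusted p = 0.0112) and LDHA (-0.45, limma adjusted p = 0.00623). The members' median of 0.44 became 0.35 with median scaling (all detected probes 0.045) and 0.19 with median scaling before the offset (all detected probes -0.097). It was 0.41 to 0.51 with 1 array left out. The genes around the chain, 7 higher and 7 lower, became 11 and 3 with raw signals over the median, 14 lower with median scaling before the offset, 3 lower without a filter, and 3 to 6 lower with 1 array left out. PFKP and ENO1 turned to -0.041 and -0.023 with median scaling before the offset. All detected probes had a median of -0.097 in that scaling, and PFKP and ENO1 stood 0.056 and 0.074 above it. LDHA turned to 0.018 with cyclic loess, and ran from -0.10 to 0.014 with 1 array left out (highest without scrambled RNA replicate 1). The cause of these shifts was not tested. Arrays of the same replicate number did not deviate together from their group means (correlation of deviations -0.0081). With 2 arrays a group, both numbers must give the same value, so this is a single check and does not exclude pairing. With the replicate block 5902 probes were called, and the members' calls stayed 5 higher and 1 lower; of the genes around the chain, SLC2A8 and SLC16A3 lost their calls (limma adjusted p = 0.0533 and 0.0607), leaving 5 lower.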
